A study of Mus musculus with 16 samples.

Results

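The comparison was between the uninjured sciatic nerve of mice carrying the WldS mutation (strain C57BL/6 OlaHsd-Wlds, called WldS here) and that of wild-type C57BL/6 mice. It rested on 4 of the 16 arrays in the series, 2 per strain, chosen because their labels gave them as naive nerve at day 0. Both strains were 8 to 12 weeks old. Each array measured RNA of a 4 mm nerve segment, cleared of connective tissue and pooled over mice before extraction. The remaining 12 arrays came from nerve 3, 7 or 14 days after a crush, with 2 arrays per strain and day, and served to estimate the spread between arrays and to follow the same genes after injury. The series used 56 mice per strain, and how many went into each pool was not stated. The p-values therefore measured the spread between pools, which may in part be technical, and the spread between mice was not seen.

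WldS arose spontaneously in a C57BL/6 colony. A repeated segment of a chromosome joins the start of Ube4b, a ubiquitin ligase gene, to the whole coding sequence of Nmnat1, which makes the nuclear enzyme that forms NAD from its mononucleotide precursor. The chimeric gene is transcribed from the Ube4b promoter, and the fusion protein delays Wallerian degeneration, the breakdown of the axon stump that is cut off from its cell body. In healthy axons the short-lived enzyme NMNAT2 supplies NAD, and its loss after injury activates SARM1, an enzyme that destroys NAD. The mutant line is kept as a strain of its own, so a difference between the strains could come from the mutation or from any other genetic difference between the lines, and the design cannot tell these apart.

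The values were log2 probe set signals, so a difference of 1 is a 2-fold difference. Values after ± are standard errors for differences. The labelled tissue was checked against its markers. The myelin genes Mbp (14.23 and 14.34 in C57BL/6, 14.36 and 14.29 in WldS) and Pmp22 (14.15 and 14.07 in C57BL/6, 14.00 and 14.08 in WldS) were among the brightest probe sets, and Sox10, the Schwann cell transcription factor, lay between 12.06 and 12.25 on all 4 arrays. The first WldS pool stood apart from the other 3. Its 3'/5' index, the mean log2 excess of the 3' over the 5' control probe set of Actb and Gapdh and a sign of how intact the RNA was, reached 3.81, against 2.46 in the second WldS pool and 2.29 and 2.36 in the C57BL/6 pools. Between the pools of a strain, the standard deviation of a gene had a median of 0.145 in WldS and 0.0973 in C57BL/6. In a bulk sample, fewer cells of a type and less RNA per cell cannot be told apart.

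Few genes separated the strains before injury. Of 14545 genes tested, 33 (0.227%) passed an adjusted p of 0.05 with limma, 12 (0.0825%) higher in WldS and 21 (0.144%) lower. The 16 of these that differed at least 2-fold were led by Jchain, Nmnat1, Mageb16, Ighm and Igkv8-30 on the higher side and by Pttg1, Them5, Frzb and Lepr on the lower side. The median difference over all genes was -0.02. Separation of the 4 arrays by strain was common: the strains did not overlap in 6363 of the 14545 genes, 2744 higher and 3619 lower in WldS. At an unadjusted p of 0.05, 844 genes (5.8%) were higher and 1705 (11.7%) lower. These shares are set beside the gene lists below, which were chosen with earlier results of these data known. List shares that count a called gene are therefore a description. The count of calls turned on single arrays. It was 20 without the first WldS pool, 1791 without the second WldS pool, 7 without the first C57BL/6 pool and 17 without the second. Under each of these 4 omissions, 7 named genes passed the test, namely Nmnat1, Mageb16, Tmem158, Tmem181a, Pttg1, Them5 and Frzb, and the other 24 lost their call under at least 1 of them.

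**Figure D1:**
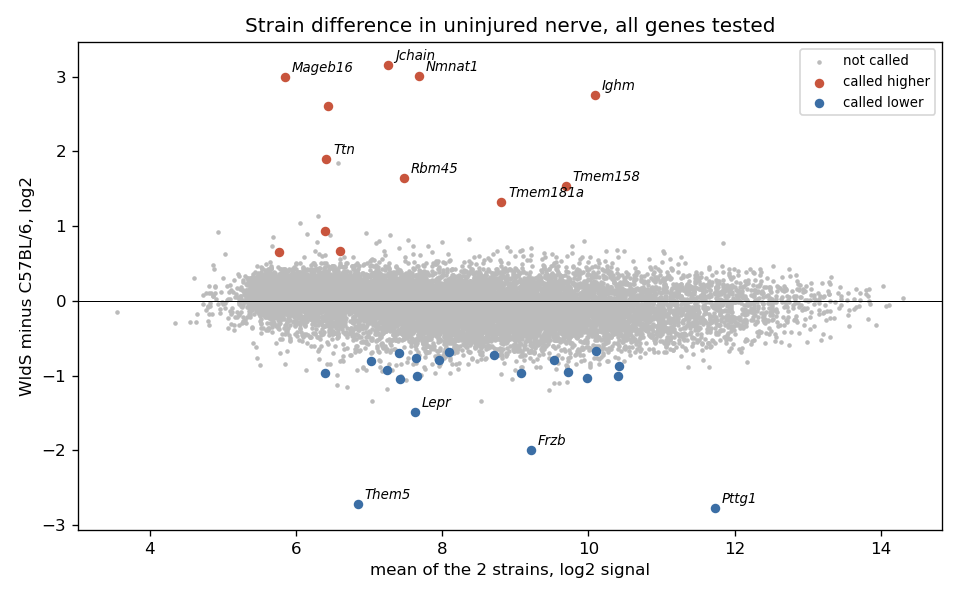
Strain difference (WldS minus C57BL/6, log2) against the mean log2 signal of both strains for the 14545 genes tested in uninjured nerve. Red and blue points are the 12 genes called higher and the 21 called lower, grey points the rest, and most genes lie close to the line at 0.

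The locus of the mutation was examined first, with the promoters that bear on it. The RefSeq promoter windows (GRCm38.p6, from 250 bases before to 50 after the start) of Ube4b at chr4:149426582-149426881, of Nmnat1 at chr4:149485161-149485460 and, for the gene with the deepest fall, of Pttg1 at chr11:43425932-43426231 all lie on the minus strand. They are printed because the first drives the chimeric transcript, the second drives normal Nmnat1 and the last belongs to a gene whose RNA differed strongly without being at the locus. Capitals mark CCAAT or its reverse complement ATTGG, and CACGTG, which reads the same on both strands. The marked motifs did not overlap.
Ube4b: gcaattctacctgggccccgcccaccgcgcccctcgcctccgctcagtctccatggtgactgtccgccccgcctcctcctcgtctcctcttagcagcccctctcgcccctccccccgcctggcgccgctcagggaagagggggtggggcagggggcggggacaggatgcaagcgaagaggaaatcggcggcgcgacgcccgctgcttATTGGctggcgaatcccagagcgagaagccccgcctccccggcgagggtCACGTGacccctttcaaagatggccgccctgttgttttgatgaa
Nmnat1: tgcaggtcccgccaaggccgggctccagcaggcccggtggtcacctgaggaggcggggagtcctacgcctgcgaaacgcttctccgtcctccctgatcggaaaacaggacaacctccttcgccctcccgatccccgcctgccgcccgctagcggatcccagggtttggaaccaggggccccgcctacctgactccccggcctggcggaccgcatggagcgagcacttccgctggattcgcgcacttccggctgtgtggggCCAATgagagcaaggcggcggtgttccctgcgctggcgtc
Pttg1: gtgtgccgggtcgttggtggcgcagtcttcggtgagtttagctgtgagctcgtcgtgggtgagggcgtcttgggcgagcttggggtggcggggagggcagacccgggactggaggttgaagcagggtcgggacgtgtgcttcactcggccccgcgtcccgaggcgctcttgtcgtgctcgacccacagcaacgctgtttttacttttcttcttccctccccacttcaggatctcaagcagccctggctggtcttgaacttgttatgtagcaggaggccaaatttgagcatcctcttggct
The Ube4b window held 1 CCAAT, on the opposite strand, and 1 CACGTG, the Nmnat1 window 1 CCAAT, and these letters were not in the Pttg1 window. Over all 32851 windows of 300 bases in the RefSeq table, 37.4% held CCAAT on either strand and 7.2% held CACGTG. The windows were 68.3%, 69.0% and 60.3% G and C in that order, against a median of 52.7%, with 27, 28 and 20 CG pairs against a median of 7. For Nmnat1 the table lists 2 windows, and the first is shown.

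Nmnat1 RNA was high in both WldS pools. Its signal was 6.01 and 6.34 in the C57BL/6 pools and 9.35 and 9.02 in the WldS pools. The strains did not overlap, and the lower WldS pool stood well above the higher C57BL/6 pool. The difference was 3.01 ± 0.16, an 8.08-fold rise (limma adjusted p = 1.59e-07). A second Nmnat1 probe set gave 5.48 and 5.11 against 7.35 and 7.73, a difference of 2.24.

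Ube4b itself, whose start is part of the fusion, gave 8.57 and 8.53 in C57BL/6 and 8.87 and 8.49 in WldS. The strains overlapped, and the difference was 0.14 ± 0.14 (adjusted p = 0.614). Its other 2 probe sets each differed by -0.01. Where these probe sets lie relative to the join of the fusion was not tested. Rbp7, whose product carries retinol and whose gene sits in the gap between Ube4b and Nmnat1, gave 5.96 and 5.89 in C57BL/6 and 6.85 and 6.34 in WldS. Both WldS pools were higher, but the difference of 0.67 ± 0.16 did not pass the test in uninjured nerve (adjusted p = 0.151).

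No gene around the locus matched Nmnat1. Of its 20 nearest tested neighbours in the RefSeq gene order, 10 on each side, 0 passed the limma test, and 2 were higher at an unadjusted p of 0.05 (Rbp7 and Pik3cd, which encodes a catalytic subunit of a lipid kinase of white blood cells). The differences of the 20 ran from -0.09 to 0.67 with a median of 0.09, and 17 were above 0. Over all 14545 genes tested, 6794 were above 0 and 5.8% were higher at an unadjusted p of 0.05. Kif1b, the axonal transport motor gene on the far side of Ube4b, differed by 0.26 ± 0.23, and Lzic, the next tested gene past Nmnat1, by 0.05 ± 0.13. Other Kif1b probe sets differed by -0.56 to 0.19.

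**Figure D2:**
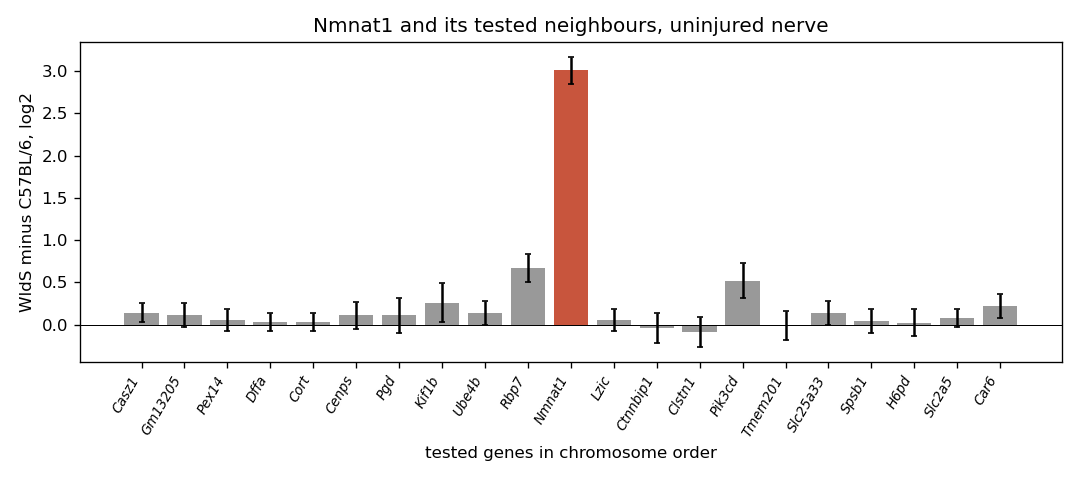
Strain difference (log2, bars, with standard errors) of Nmnat1 and of 10 tested genes on each side of it, in chromosome order. Nmnat1 stands at 3.01, while the neighbours lie between -0.09 and 0.67, with Rbp7 the highest of them.

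Other genes kept in the list of the locus and of known strain differences did not pass the test, except Pttg1, described below. Nnt, the mitochondrial transhydrogenase gene whose mutation marks a C57BL/6 substrain, gave 10.08 and 9.92 in C57BL/6 and 10.50 and 9.91 in WldS, a difference of 0.20 ± 0.16 (adjusted p = 0.493). Mmrn1, which encodes multimerin 1, was 5.72 and 5.59 in C57BL/6 and 8.02 and 6.97 in WldS. Its strains did not overlap, yet the difference of 1.84 ± 0.51 did not pass (adjusted p = 0.158). Cyfip2, an actin regulator (-0.51 ± 0.13, adjusted p = 0.156), Edil3, a matrix protein of vessels (-0.50 ± 0.19, adjusted p = 0.212), Erdr1 (-0.09 ± 0.20) and Crb1, a polarity gene (-0.04 ± 0.12), did not pass either.

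Among the genes that make and use NAD, Nmnat1 was the only called member of the 25 tested, and it was on the list for that reason. The median of the 25 was -0.04, and at an unadjusted p of 0.05 there were 2 higher (Nmnat1 and Sirt6) and 1 lower (Aox1), against 5.8% and 11.7% of all genes. The sister enzymes gave small differences. Nmnat2, the axonal enzyme, was 7.74 and 7.73 in C57BL/6 and 7.85 and 7.67 in WldS, a difference of 0.02 ± 0.11, and Nmnat3, the mitochondrial enzyme, differed by -0.03 ± 0.10. Nmnat3 was 5.36 and 5.41 against 5.33 and 5.39, close to the limit of 5.37 under which genes were left out as dim. A difference in it could therefore have been missed. Sarm1 was 6.46 and 6.33 against 6.63 and 6.26, a difference of 0.05 ± 0.15. In none of these 3 genes did the strains separate.

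The enzymes that feed the NAD pool differed little. Nampt, the rate-limiting enzyme of the salvage route, differed by 0.04 ± 0.13, Nadsyn1, the synthetase of the last step from nicotinic acid, by 0.22 ± 0.13, Naprt by -0.06 ± 0.12, Qprt by -0.02 ± 0.13, and the riboside kinases Nmrk1 and Nmrk2 by -0.06 ± 0.15 and 0.16 ± 0.11. The other Nampt probe sets gave -0.40 and -0.14. The NAD kinases Nadk and Nadk2, which make NADP, differed by -0.39 ± 0.19 and -0.53 ± 0.29. Slc25a51, the mitochondrial NAD carrier, differed by -0.23 ± 0.16. The adjusted p of these genes lay above 0.05 throughout.

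The enzymes that use NAD, or that act on nicotinamide or its methylated form, gave no call. Parp1, a DNA damage sensor, gave 8.07 and 8.12 against 8.70 and 8.31 and differed by 0.41 ± 0.20 (adjusted p = 0.305), while Parp2 differed by -0.07 ± 0.13 and Parp3 by -0.26 ± 0.14. The other Parp1 probe sets differed by -0.60, 0.13 and 0.03, and those of Parp3 by 0.36 and 0.32. For both genes the direction thus depended on the probe set. Of the sirtuins, NAD-dependent deacylases, Sirt1 differed by -0.34 ± 0.17, Sirt2 by -0.21 ± 0.21, Sirt3 by -0.05 ± 0.15, Sirt5 by 0.00 ± 0.11, Sirt6 by 0.25 ± 0.10 and Sirt7 by -0.04 ± 0.12. The other Sirt5 probe sets gave -0.45 and -0.11. Sirt2, a myelin-rich member, was 12.19 and 12.02 in C57BL/6 and 11.48 and 12.30 in WldS, so the WldS pools lay on either side of the C57BL/6 pools. Bst1 (-0.30 ± 0.20), an NAD-splitting ectoenzyme, Nnmt (-0.02 ± 0.16), which methylates nicotinamide, and Aox1 (-0.35 ± 0.16), which oxidises the methylated form, did not pass.

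The other genes higher in WldS fell into immunoglobulin genes, muscle genes and several without a shared role. Mageb16, an X-linked member of the MAGE family whose genes are mostly active in germ cells, was 4.39 and 4.31 in C57BL/6 and 7.05 and 7.63 in WldS. It was near the floor of the array in C57BL/6, with its mean under the dim limit of 5.37, and well above it in both WldS pools, so it passed the dim filter only through WldS. Set against the dim limit it was at least 3.92-fold higher in WldS. The measured difference of 2.99 ± 0.20 (adjusted p = 2.29e-06) has no exact size, since its C57BL/6 side was under that limit. None of the other 5 tested MAGE genes was called by limma, and they lay between -0.37 and 0.41, with Magel2 higher and Magee1 lower at an unadjusted p of 0.05.

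Rbm45, which encodes an RNA-binding protein, was 6.49 and 6.82 in C57BL/6 and 8.47 and 8.12 in WldS. The strains lay apart, with a difference of 1.64 ± 0.20 (adjusted p = 0.00227), though the call was lost without the first C57BL/6 pool (adjusted p = 0.0983). Tmem158, a membrane protein gene induced by Ras, was 8.76 and 9.07 against 10.63 and 10.29. It was higher in both WldS pools, by 1.54 ± 0.14 (adjusted p = 7.61e-05), and by 0.73 as the mean of its probe sets. Tmem181a, which encodes a membrane protein with several passes, was 8.16 and 8.14 against 9.65 and 9.29. Its difference was 1.32 ± 0.13 (adjusted p = 1.97e-04).

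Fancd2, a gene of DNA crosslink repair, was 5.43 and 5.45 in C57BL/6 and 6.21 and 5.98 in WldS. This dim gene differed by 0.65 ± 0.11 (adjusted p = 0.0321), and its other 3 probe sets differed by -0.12, 0.02 and 0.27. The test was therefore passed by 1 of its 4 probe sets.

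Of the immunoglobulin genes, 3 of 8 tested were called higher, against 0.0825% of all genes, and the other 5 did not pass. Jchain, which links IgM and IgA into polymers, was 5.96 and 5.39 in C57BL/6 and 8.92 and 8.76 in WldS. It was the largest rise of all genes tested, at 3.16 ± 0.50 or 8.94-fold (adjusted p = 0.0189). Ighm, the heavy chain of IgM, was 8.61 and 8.84 against 11.45 and 11.50, and rose by 2.75 ± 0.48 (adjusted p = 0.0332). Igkv8-30, a kappa light chain variable gene, was 5.05 and 5.21 in C57BL/6, under the dim limit, against 7.95 and 7.54 in WldS. It was at least 5.19-fold higher in WldS than the limit, with a measured difference of 2.61 ± 0.37 (adjusted p = 0.0109). Both WldS pools were high in each of the 3 genes.

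Of the heavy chains of other classes, Igha and Ighg3 differed little between the strains. Igha, of IgA, was 7.33 and 7.16 against 7.25 and 7.30 (0.03 ± 0.21), and Ighg3, of an IgG class, differed by 0.04 ± 0.11. All 8 tested immunoglobulin genes were estimated higher in WldS, with a median of 0.41. Of them, 5 (62.5%) were higher at an unadjusted p of 0.05, against 5.8% of all genes. The array holds 11 Ighm probe sets, of which 2 differed by over 1 (2.75 and 1.36) and the others by -0.14 to 0.20, and the mean of all 11 differed by 0.46 (adjusted p = 0.163). Immunoglobulin probe sets can share sequence between genes, so the split between Ighm and its relatives is uncertain.

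Apart from Jchain, no tested marker of the cells that make antibodies passed the test. Of 10 tested plasma cell genes, 1 was called, Jchain itself, and the median was 0.13. At an unadjusted p of 0.05, 3 of the 10 (30%) were higher and 1 (10%) lower, against 5.8% and 11.7% of all genes. Mzb1, a chaperone of IgM assembly, was 6.78 and 6.83 against 7.39 and 7.29 (0.54 ± 0.14, adjusted p = 0.156), whereas Sdc1 (-0.53 ± 0.28) and the plasma cell regulators Prdm1 (-0.28 ± 0.13) and Irf4 (-0.24 ± 0.19) were estimated lower. Of 10 tested B cell genes 0 were called by limma, 1 (10%) was higher and 1 (10%) lower at an unadjusted p of 0.05, and the median was 0.15. The surface marker Ms4a1 differed by 0.19 ± 0.17 and Cd79b by -0.16 ± 0.18. Tnfrsf17, a plasma cell receptor, and Pou2af1, a B cell coactivator, were too dim to be tested. Leaving out any of the C57BL/6 pools or the first WldS pool ended the calls of the 3 genes, with differences of 2.41 to 3.45 and adjusted p of 0.07 to 0.288.

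A few muscle genes rose in WldS, with larger list values in the second pool. Of 13 tested skeletal muscle genes 2 were called higher, Ttn and Atp2a1, against 0.0825% of all genes, and 5 (38.5%) were higher at an unadjusted p of 0.05, against 5.8% of all genes. The median was 0.26, made up of 0.15 in the first WldS pool and 0.63 in the second. Ttn, the giant spring protein of the sarcomere, was 5.34 and 5.59 in C57BL/6 and 6.52 and 8.20 in WldS. Most of its difference of 1.90 ± 0.35 (adjusted p = 0.0496) came from the second WldS pool, and it was 1.06 without that pool.

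Atp2a1, the calcium pump of fast muscle, was 6.13 and 6.41 against 6.81 and 7.07 and rose by 0.67 ± 0.12 (adjusted p = 0.0436). Some of the 7 muscle genes that were too dim over the series to be tested were bright in the second WldS pool alone. Tnnc2, a fast troponin, reached 9.19 there against 5.37, 6.14 and 5.69 on the other 3 arrays, Myh2, a fast myosin, 8.44 against 4.76, 4.12 and 4.63, and Acta1, skeletal actin, 7.69 against 4.82, 4.86 and 4.94. Myh4, another fast myosin, was at 4.87, 4.82, 5.01 and 5.01. Myh1, Actn3 and Neb were not bright in the second WldS pool either, at 4.57, 5.36 and 4.73. The part that muscle RNA played in the difference of Ttn and Atp2a1 was not tested.

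**Figure D3:**
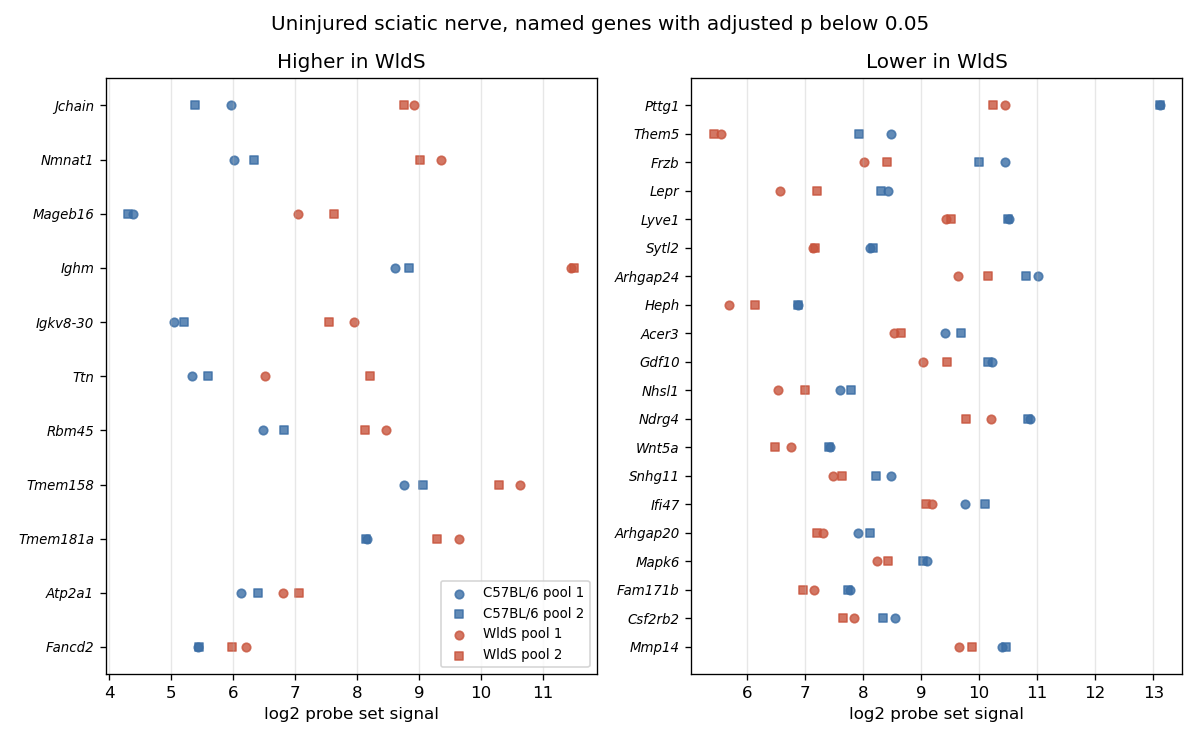
Log2 probe set signal on each of the 4 uninjured arrays for the 31 named genes that passed the test, with blue for C57BL/6, red for WldS, circles for the first pool and squares for the second. The strains do not overlap in any of them, which the rule for naming required, and Ttn has the widest gap between the WldS pools (6.52 and 8.20).

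The lower genes were led by Pttg1, securin, which holds the protease separase inactive until chromosomes part. It was 13.11 in both C57BL/6 pools and 10.45 and 10.24 in WldS. This very bright gene fell by 2.77 ± 0.11 in WldS, to a level 6.82-fold lower (adjusted p = 1.09e-08). Its other 2 probe sets fell by 2.75 and 1.41. Of the other 11 tested securin, separase and cohesin genes, 0 passed the limma test. The cohesin subunits Smc3 (-0.61 ± 0.21), Stag2 (-0.58 ± 0.22), Rad21 (-0.41 ± 0.18) and Smc1a (-0.36 ± 0.16) were lower at an unadjusted p of 0.05. With Pttg1, 5 of the 12 genes of this list (41.7%) were lower at that p, against 11.7% of all genes. The first WldS pool was the lowest array for the 4 cohesin subunits. Smc3, for example, was 9.72 and 9.73 in C57BL/6, 8.85 in that pool and 9.38 in the second.

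Them5, a mitochondrial acyl-CoA thioesterase that acts in cardiolipin remodelling, was 8.49 and 7.93 in C57BL/6 and 5.56 and 5.43 in WldS. It was present in C57BL/6 and close to the dim limit in WldS, a difference of -2.72 ± 0.17 (adjusted p = 1.12e-06). Another Them5 probe set, left out of the test because it was dim over the whole series, gave 9.30 and 9.18 in C57BL/6 against 3.95 and 3.85 in WldS. The WldS values were under the dim limit, so C57BL/6 was at least 14.6-fold higher by this probe set, while the last gave -0.02. Its relative Them4 was 8.07 and 8.50 against 7.81 and 7.51 (-0.63 ± 0.17, adjusted p = 0.156). Of the 8 other tested thioesterase genes 0 were called by limma, with Them4 and Acot9 (-0.35 ± 0.15) lower at an unadjusted p of 0.05. With Them5, 3 of the 9 (33.3%) were lower at that p, against 11.7% of all genes.

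Frzb, a secreted Wnt antagonist, was 10.45 and 10.00 in C57BL/6 and 8.02 and 8.42 in WldS. It fell by 2.00 ± 0.21, to a level 4.01-fold lower (adjusted p = 3.19e-04), and its second probe set fell by 1.21. Wnt5a, a ligand of the branch that does not act through β-catenin, was 7.44 and 7.42 against 6.76 and 6.49 (-0.81 ± 0.15, adjusted p = 0.0496), although its other 3 probe sets differed by -0.05, 0.10 and -0.33.

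These were 2 of 18 tested Wnt ligands and antagonists, and 9 of the 18 (50%) were lower at an unadjusted p of 0.05, against 11.7% of all genes. The median of the list was -0.32, at -0.42 in the first WldS pool and -0.26 in the second. The antagonist Sfrp2 was 10.02 and 10.28 in C57BL/6 and 9.24 and 8.87 in WldS, lower in both pools, but its difference of -1.10 ± 0.25 did not pass (adjusted p = 0.119). Sfrp4 (-0.67 ± 0.20, adjusted p = 0.169) and Dkk2 (-0.54 ± 0.19, adjusted p = 0.206) did not pass either.

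Lepr, the leptin receptor, was 8.43 and 8.32 in C57BL/6 and 6.57 and 7.21 in WldS. It was lower in both WldS pools, with a difference of -1.49 ± 0.24 (adjusted p = 0.0222), or -1.17 (adjusted p = 0.173) without the first of them. Its other 3 probe sets differed by -1.64, -0.32 and 0.05. Of 16 tested leptin and insulin pathway genes, Lepr alone was called, against 0.144% of all genes called lower. With Lepr, 7 (43.8%) were lower at an unadjusted p of 0.05, against 11.7% of all genes. Igf2 (-0.69 ± 0.16, adjusted p = 0.143) and Igf1 (-0.65 ± 0.18, adjusted p = 0.158), growth factors, were the next largest. The median of the list was -0.48 in the first WldS pool and -0.07 in the second.

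Lyve1, which binds hyaluronan on lymphatic endothelium and on some resident macrophages, was 10.51 and 10.50 in C57BL/6 and 9.43 and 9.52 in WldS. Both WldS pools were lower by about the same amount, with a difference of -1.03 ± 0.18 (adjusted p = 0.0343), while its second probe set gave -0.21. Other lymphatic genes did not follow. Of the other 6 tested, 0 passed the limma test and 1, Mmrn1, was higher at an unadjusted p of 0.05. Pdpn, podoplanin, differed by 0.03 ± 0.13 and Flt4, the receptor for VEGF-C, by -0.27 ± 0.20. Prox1, the regulator that defines lymphatic endothelium, was too dim to be tested, at 4.83 to 5.51. Genes of resident macrophages did not pass either (0 of 25 called by limma). Of the 25, 6 (24%) were lower and 1 (4%) higher at an unadjusted p of 0.05, against 11.7% and 5.8% of all genes. Mrc1 (-0.63 ± 0.21, adjusted p = 0.191) and Cd209f (-0.64 ± 0.21, adjusted p = 0.19) were among the lowest.

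The other 14 named genes that fell did so by 0.67 to 1.00 on the log2 scale. They included Gdf10, a ligand of the TGF-β family, at 10.22 and 10.16 in C57BL/6 and 9.04 and 9.45 in WldS (-0.95 ± 0.15, adjusted p = 0.0189). Heph, the copper-dependent ferroxidase hephaestin, was 6.89 and 6.88 against 5.69 and 6.15 (-0.96 ± 0.18, adjusted p = 0.0496). Mmp14, a membrane-bound matrix protease, was 10.39 and 10.47 against 9.66 and 9.87 (-0.67 ± 0.12, adjusted p = 0.0369). In each of the 3, the C57BL/6 pools lay close together and the first WldS pool was the lowest array.

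Sytl2, a partner of Rab27 in vesicle transport, fell by 1.00 ± 0.16, and Arhgap24 fell by 1.00 ± 0.16. Acer3, an alkaline ceramidase (-0.96 ± 0.17), Ndrg4 (-0.87 ± 0.14) and Arhgap20 (-0.76 ± 0.13) also fell. So did the kinase Mapk6 (-0.72 ± 0.13), the membrane protein gene Fam171b (-0.70 ± 0.11), the interferon-induced GTPase Ifi47 (-0.79 ± 0.14), the non-coding RNA Snhg11 (-0.79 ± 0.12) and Nhsl1 (-0.93 ± 0.17). Csf2rb2, a β chain of the interleukin 3 receptor, fell by 0.69 ± 0.11, and since its neighbour Csf2rb is a near copy, the probes may not tell them apart. For Nhsl1, Mapk6, Arhgap24, Acer3 and Mmp14, at least 1 other probe set of the gene gave a difference above 0 (0.02 in Mmp14). Of all 33 called genes, 20 had several probe sets, and in 11 of these every other probe set differed in the same direction.

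The lists that describe the cells of the nerve gave few calls. Of 19 tested genes of compact and noncompact myelin, 0 were called by limma and 0 differed at an unadjusted p of 0.05, with a median of -0.01. Their differences ran from -0.76 to 0.25. The lowest was Cldn19, the claudin of myelin junctions, at 10.50 and 10.42 in C57BL/6 and 8.90 and 10.50 in WldS (-0.76 ± 0.38, adjusted p = 0.308), which was low in the first WldS pool alone. Of 18 Schwann cell transcription factors 0 were called by limma, and the median was -0.05. At an unadjusted p of 0.05, 4 (22.2%) were lower and 0 higher, against 11.7% and 5.8% of all genes. Jun, the regulator of the repair Schwann cell, was 9.51 and 9.33 against 8.92 and 9.03 (-0.44 ± 0.12, adjusted p = 0.16), and Id4, a differentiation inhibitor, was 9.49 and 9.52 against 8.67 and 8.77 (-0.79 ± 0.17, adjusted p = 0.0944). Both lay lower in both WldS pools without passing the test. The strains were apart in that direction in 6 of the 18, and in 3619 of all 14545 genes tested.

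Axonal and neuronal transcripts, of which 10 of 15 were bright enough to be tested, had a median of -0.17. By limma 0 were called. At an unadjusted p of 0.05, 3 (30%) were lower and 1 (10%) was higher, against 11.7% and 5.8% of all genes. Stmn2, a growth-associated tubulin regulator, was 8.96 and 8.73 against 8.11 and 8.38 (-0.60 ± 0.19, adjusted p = 0.186). Of 21 endothelial genes 0 were called by limma and 5 (23.8%) were lower at an unadjusted p of 0.05, against 11.7% of all genes, led by the angiopoietin receptor Tek (-0.88 ± 0.21, adjusted p = 0.151), with a median of -0.19. Of 11 tested mast cell genes 0 were called by limma and 3 (27.3%) were higher at an unadjusted p of 0.05, against 5.8% of all genes, such as the IgE receptor chain Ms4a2 (0.50 ± 0.13, adjusted p = 0.156) and the chymase Cma1 (0.49 ± 0.21, adjusted p = 0.251), with a median of 0.19.

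Extracellular matrix genes were lower in the estimates but not in the calls. Of 31 tested, 0 passed the limma test, and 11 (35.5%) were lower and 0 higher at an unadjusted p of 0.05, against 11.7% and 5.8% of all genes. Postn, periostin, was 11.64 and 11.98 in C57BL/6 and 10.56 and 11.28 in WldS (-0.89 ± 0.19, adjusted p = 0.0944). Fn1, fibronectin, was 12.65 and 12.38 against 11.59 and 12.35 (-0.54 ± 0.19, adjusted p = 0.203), and Nid2, a basement membrane linker, differed by -0.57 ± 0.18. In these 3 genes the first WldS pool was the lowest array.

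The list medians depended on the pool, and the first pool was also the array with the highest 3'/5' index. The matrix median, -0.33 over both pools, was -0.56 in the first WldS pool and -0.10 in the second. Adipocyte genes gave -0.47 and -0.05, and the 10 tested housekeeping genes -0.47 and -0.17, where Rplp0, a ribosomal protein gene, was 13.08 and 13.01 in C57BL/6 and 11.98 and 12.92 in WldS. Of the housekeeping genes 0 were called by limma and the median was -0.35. At an unadjusted p of 0.05, 4 of them (40%) were lower, against 11.7% of all genes. The part that RNA quality played in these lists was not tested. Skeletal muscle genes (0.15 and 0.63) and glucocorticoid-responsive genes (-0.18 and 0.43) were instead higher in the second pool.

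Of the 16 glucocorticoid-responsive genes 0 were called by limma, and 6 (37.5%) were higher at an unadjusted p of 0.05, against 5.8% of all genes. They included the metallothionein Mt2, at 11.62 and 11.28 in C57BL/6 and 12.05 and 12.39 in WldS (0.77 ± 0.22, adjusted p = 0.161), and Fkbp5, a chaperone of the receptor (0.51 ± 0.15, adjusted p = 0.169). Both were higher in each WldS pool than in either C57BL/6 pool, as were 6 of the 16 genes of the list and 2744 of all 14545 genes tested.

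**Figure D4:**
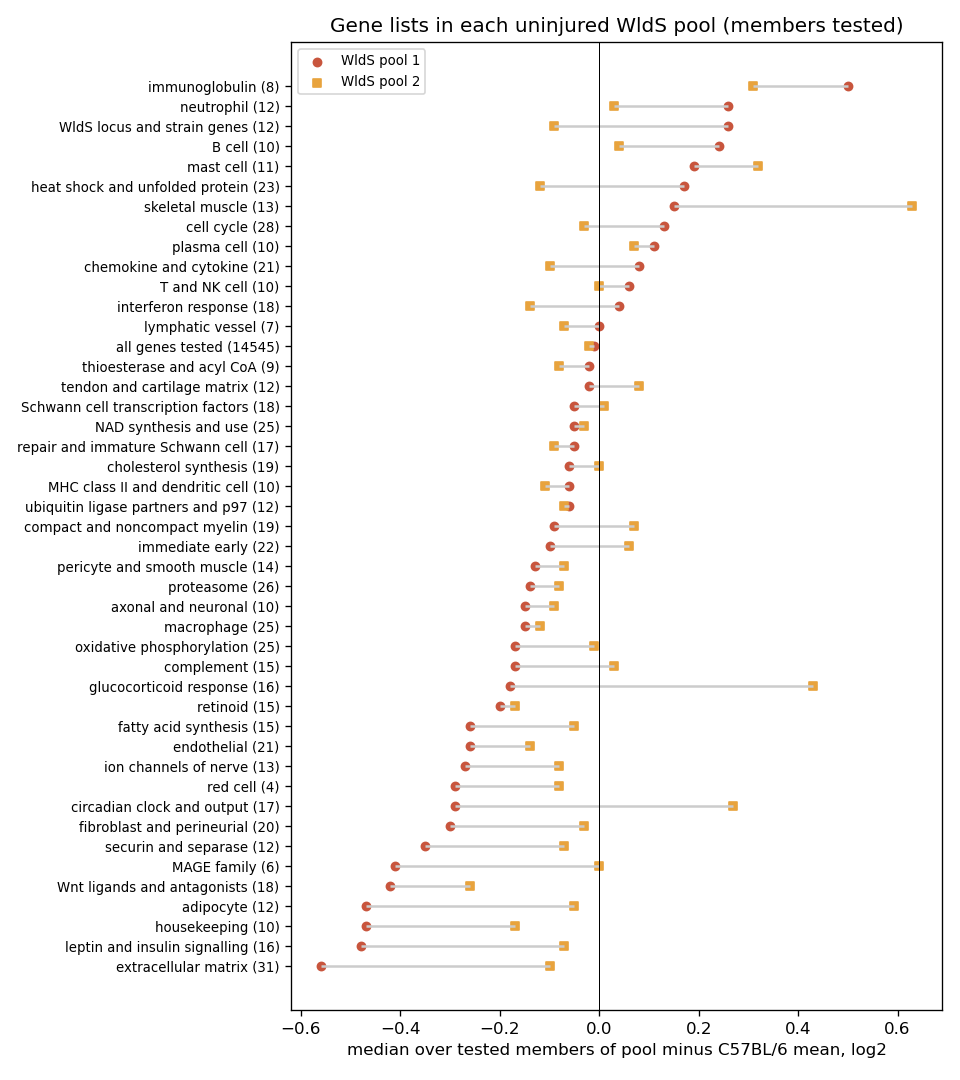
Median over the tested members of each gene list of the log2 difference from the C57BL/6 mean, shown for the first (circles) and second (squares) uninjured WldS pool, with the number of members tested in brackets. The matrix list has the lowest median in the first pool (-0.56) and lies at -0.10 in the second, while all genes tested lie near 0 in both.

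The arrays taken after the crush showed which of these differences were present at other times. They come from other pools of the same strains. Of the 33 genes, 8 were called in the same direction on days 3, 7 and 14, namely Nmnat1, Mageb16, Rbm45, Tmem181a, Jchain and Igkv8-30 on the higher side and Lepr and Fam171b on the lower side. By day, 6 of the 12 higher genes were called higher on day 3, 7 on day 7 and 8 on day 14, where 4.82%, 3.86% and 2.9% of all genes were. Of the 21 lower genes, 4, 6 and 7 were called lower, against 4.62%, 2.97% and 3.55% of all genes. The tests before and after injury share each gene's variance estimate, so genes called before were partly selected for a small one. The shares of all genes are therefore not a fair baseline, and these counts are a description. Mageb16, counted here, passed the dim filter only through WldS. The sign of the difference does not use that variance, and it stayed the same in 24, 21 and 25 of the 33 on days 3, 7 and 14.

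Nmnat1 differed by a similar amount at each time. It lay between 5.42 and 6.34 on the 8 C57BL/6 arrays and between 8.50 and 9.35 on the 8 WldS arrays, and the strains differed by 2.69, 3.09 and 3.40 on days 3, 7 and 14 (adjusted p of 5.46e-08 or less). The difference after injury minus that before was 0.05 ± 0.18 (adjusted p = 0.928). The measured difference of Mageb16, dim in C57BL/6 throughout, was 2.21, 2.50 and 3.15 on these days and that of Rbm45 was 2.05, 1.96 and 2.07, with all WldS arrays above all C57BL/6 arrays in both genes. Jchain differed by 2.92, 2.66 and 2.54, with every WldS array at 7.23 or above and every C57BL/6 array at 6.98 or below.

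Rbp7, which had not passed before injury, was called higher on days 7 and 14 (0.71, adjusted p = 0.0146, and 0.60, adjusted p = 0.0412), and Mmrn1 likewise (2.63, adjusted p = 0.00539, and 2.32, adjusted p = 0.0155). Lepr differed by -2.11, -1.91 and -0.98 on days 3, 7 and 14. In these genes the direction was that of the uninjured nerve on all 3 days.

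For a second group of genes the strain difference changed on average after injury. The strain difference averaged over days 3, 7 and 14 minus that of uninjured nerve passed the limma test in 645 genes (4.43%), and in 16 of the 33. The 16 were 4 of the 12 higher and 12 of the 21 lower genes, and none of the 8 genes called on all later days was among them. The 33 were selected on the uninjured difference, which enters this contrast, so their share was given as a description.

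Pttg1 was among the 16. It was 13.11 in both uninjured C57BL/6 pools and 12.36 to 12.59 on the 6 later C57BL/6 arrays, while in WldS it rose from 10.45 and 10.24 to between 11.80 and 12.64. The strains thus lay far apart before the crush and close after it, with differences of 0.23, -0.36 and -0.63 on days 3, 7 and 14 and a change of 2.52 ± 0.13 (adjusted p = 2.74e-07). Them5 was high only in the uninjured C57BL/6 nerve. All 12 later arrays of both strains lay between 5.33 and 5.79, at the level of uninjured WldS nerve, and the change was 2.59 ± 0.19 (adjusted p = 5.62e-06).

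Gdf10, Heph, Acer3, Ifi47 and Snhg11 went from lower in WldS before injury to estimates that were mostly above 0 afterwards, with changes of 1.15 to 1.52. Of these, Ifi47 was called higher in WldS on day 3 (0.93, adjusted p = 5.31e-04), and Heph and Snhg11 on day 7 (0.85, adjusted p = 0.00946, and 0.46, adjusted p = 0.0348). Tmem158, higher in uninjured WldS nerve, was called lower on day 3 (-0.50, adjusted p = 0.0338), differed by 0.03 on day 7 and was called higher on day 14 (1.18, adjusted p = 1.69e-04). In C57BL/6 it was 8.76 and 9.07 before injury, 10.35 to 10.50 on days 3 and 7, and 9.30 and 9.43 on day 14, whereas the 8 WldS arrays stayed between 9.85 and 10.63.

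Ttn and Atp2a1 were called in uninjured nerve and on no later day. After it, Ttn lay between 5.09 and 5.66 on all 12 arrays, and Atp2a1 between 6.24 and 6.46. Lyve1, also among the 16, was still called lower in WldS on day 3 (-1.02, adjusted p = 0.00203), and differed by 0.41 and 0.14 on days 7 and 14. Frzb gave a difference of 0.12 on day 3, when the C57BL/6 arrays had dropped to 7.31 and 7.58, and was again called lower in WldS on days 7 and 14 (-2.20, adjusted p = 1.17e-05, and -1.39, adjusted p = 0.00122).

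**Figure D5:**
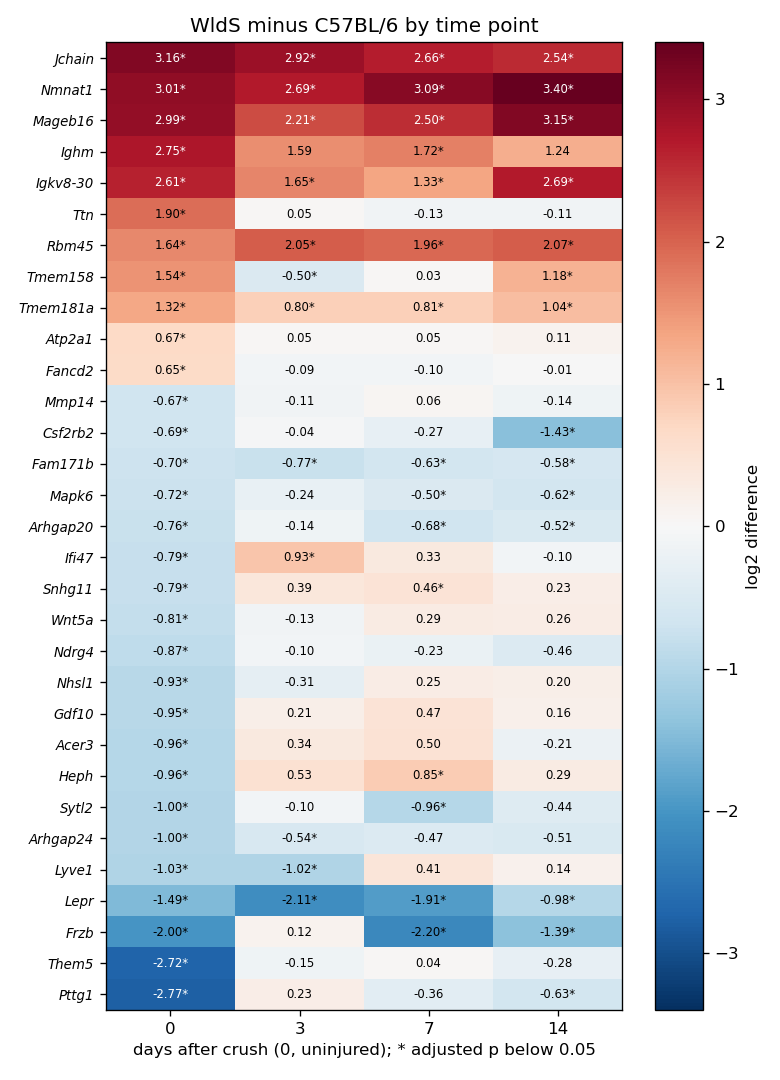
WldS minus C57BL/6 difference (log2, colour and printed value) of the 31 named genes in uninjured nerve (0) and 3, 7 and 14 days after the crush, with a star where the adjusted p was below 0.05. Nmnat1, Mageb16, Rbm45 and Tmem181a are starred at all 4 time points, whereas Pttg1 goes from -2.77 to 0.23, -0.36 and -0.63.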

How the data were processed

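RNA of pooled sciatic nerve was measured on 16 Affymetrix mouse arrays, 2 in each of 8 groups (2 strains at 4 time points). The deposited values are log2 signals per probe set, already normalized between arrays by the authors. The submitters' processing notes name GCOS 1.4, RMA, limma and Partek but not what each did, and the genome build is not given in the sources used here. Array medians lay between 6.42 and 6.49, and the number of arrays limits the precision.

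Probe sets were named from the platform's probe table: 34945 of 45101 had 1 gene symbol, 932 several and 9160 none listed, and 64 were controls. For each of 18193 genes the probe set of highest mean signal (all 16 arrays) was used. Genes with a mean below the 30th percentile (5.37) were left out as dim, and 14545 were tested. A model of group means over all 16 arrays was fitted in limma 3.58.1 (R 4.3.3, 8 residual and 5.82 prior degrees of freedom). Tests were two-sided and Benjamini-Hochberg adjusted across the genes tested, and called means an adjusted p below 0.05. An exact permutation test of 2 against 2 arrays cannot give a p under 0.333. The members of the gene lists, the lists and the comparisons were chosen with earlier results of these data known.

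The text names every called gene whose arrays do not overlap between strains, apart from 2 clone names (Gm13306 and Gm10710), every tested gene of the locus and NAD lists, and of other lists the called members and some with large differences, given as values. Some genes named with a value outside this rule (such as Mbp, Prox1, Myh4 and Pou2af1) were chosen as markers or after their values were seen. Gene order came from the RefSeq gene table and promoters from the RefSeq promoter table (GRCm38.p6). The alternatives leave out arrays, add the 3'/5' index or the replicate number, rescale the arrays, and change the dim filter, the choice of probe set, the variance model and the call rule. Same-numbered arrays did not deviate together between the uninjured groups (r = -0.12), so the numbers were not taken to pair the samples.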

Additional observations from a re-analysis of the deposited data

Results flagged for a closer look

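For 16 of the named genes the strain difference after the crush, averaged over days 3, 7 and 14, differed from that in uninjured nerve by limma's test of the difference itself. Among genes lower in uninjured WldS nerve, the change (after minus before, log2) was positive. The largest were in Them5 (2.59 ± 0.19, adjusted p = 5.62e-06), Pttg1 (2.52 ± 0.13, adjusted p = 2.74e-07), Heph (1.52 ± 0.21, adjusted p = 7.49e-04) and Gdf10 (1.23 ± 0.17, adjusted p = 7.45e-04). Changes near 1 were found in Ifi47 (1.18 ± 0.16, adjusted p = 7.33e-04), Acer3 (1.17 ± 0.19, adjusted p = 0.00288), Snhg11 (1.15 ± 0.14, adjusted p = 3.32e-04), Nhsl1 (0.98 ± 0.20, adjusted p = 0.012) and Wnt5a (0.95 ± 0.18, adjusted p = 0.00668). The smallest were in Lyve1 (0.87 ± 0.21, adjusted p = 0.0298), Mmp14 (0.60 ± 0.14, adjusted p = 0.0232) and Ndrg4 (0.60 ± 0.16, adjusted p = 0.0437). Among genes higher in uninjured WldS nerve the change was negative, in Ttn (-1.96 ± 0.41, adjusted p = 0.0141), Tmem158 (-1.31 ± 0.16, adjusted p = 3.32e-04), Fancd2 (-0.72 ± 0.13, adjusted p = 0.0054) and Atp2a1 (-0.60 ± 0.14, adjusted p = 0.0278). The uninjured values that selected these genes enter the contrast.

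Probe sets that the gene comparison did not use also gave calls in uninjured nerve, in a fit over all probe sets above the dim limit. Of 4984 probe sets without a listed gene symbol 15 were called, 11 higher and 4 lower in WldS. Of 670 probe sets with several symbols 15 were called, 7 higher and 8 lower. For comparison, 51 of the 25872 probe sets with a single symbol were called in the same fit, 17 higher and 34 lower. The share called was thus largest among the probe sets with several symbols, and the cause was not tested.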

How the results depend on the processing

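Of the 33 genes called in uninjured nerve, 8 were called in the same direction on all 3 later days, and 7 to 10 of those that were tested under the alternatives that include the later arrays. That count could move little, because leaving out an uninjured array does not touch the later group means. Leaving out 1 of the 4 uninjured arrays, which leaves a lone array assumed to vary like the other groups, gave 7 to 1791 calls in uninjured nerve (33 reported), 5 to 131 called list members (13 reported), 7 to 31 of the 31 named genes and 260 to 1828 genes whose difference changed after injury (645 reported). The high end came from omitting the second WldS pool, which left the pool with the highest 3'/5' index. Without both arrays of the highest index there were 23 calls, 8 list members, 14 named genes and 396 changed genes. The index as a covariate gave 15 calls, 7 list members and 13 named genes. The replicate block gave 19 calls, 8 list members and 19 named genes, and the crossed block, chosen after seeing the data because the numbers did not deviate together (r = -0.12), gave 33 calls. A fit of the 4 uninjured arrays alone gave 10 calls, 8 list members and 10 named genes. Array quality weights gave 13 calls, 13 named genes and 356 changed genes, and cyclic loess 21 calls and 20 named genes. A dim filter at the 50th percentile left 8 list members, and the mean of all probe sets 8 list members and 17 named genes. Calls numbered 16 when a 2-fold difference was also asked for and 61 at adjusted p below 0.10. Under the other scalings and filters these counts stayed within 1.5 times. No named gene changed sign. Naming required arrays that do not overlap between the strains, so leaving out an array could not change a sign. Of the named genes, 6 (Nmnat1, Mageb16, Tmem158, Pttg1, Them5 and Frzb) were called under every alternative that tested them. Over the 45 list medians, 675 of 810 values stayed within the spread between the WldS pools and 135 did not. The cause of the lost calls was not tested. With 2 pools per strain, small differences cannot be told from the spread between pools.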

Other observations

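Of the 45 gene lists, clock genes had the largest median difference between the pools of a strain, in opposite directions in the 2 strains. The list was singled out after its values were seen. Dbp, an output gene of the circadian clock, was 11.75 and 10.40 in the C57BL/6 pools and 11.20 and 11.97 in the WldS pools. Nr1d1, the repressor REV-ERBα, was 9.26 and 7.65 against 7.57 and 8.61, and Per1, a core repressor, differed by -1.13 (second minus first pool) in C57BL/6 and by 0.94 in WldS. Arntl, the core activator BMAL1, ran the other way, at 7.23 and 8.46 in C57BL/6 and 7.50 and 7.17 in WldS. Over the 17 tested clock genes the median size of the difference between pools was 0.56 in C57BL/6 and 0.60 in WldS, against 0.14 and 0.20 over all genes tested. In 14 of the 17 the pools of the 2 strains differed in opposite directions. The strain difference of the list had a median of 0.05, and 0 clock genes were called by limma or differed between the strains at an unadjusted p of 0.05.

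A stretch of the gene order held 4 of the 33 called genes, which was seen only after the calls were made. Rbm45 and Ttn lie 5 tested genes apart, Frzb follows Ttn after 11 and Fam171b follows Frzb after 5, so that 22 tested genes run from Rbm45 to Fam171b. The other 18 genes of the stretch differed by -0.70 to 0.43 and did not pass the test. Rbm45 and Ttn were higher in WldS and Frzb and Fam171b lower.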
